A study of Mus musculus with 9 samples.

Results

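The miR-26 family was followed in small RNA libraries of B16F1, an established cell line from a mouse melanoma, whose strain the labels give as C57BL/6 and, for its skin of origin, C57BL/6J. Its members were taken by name, as every entry of the count table that was listed under the hairpins mir-26a-1, mir-26a-2 or mir-26b or under a mature miR-26 name. This gave 68 of the 6414 entries of the table, 41 of mmu-mir-26a and 27 of mmu-mir-26b. Of these entries, 63 were sequence tags and 5 were mature names, of which 1 had a count. The 9 libraries were 3 of control cells that were not exposed, 3 of cells exposed to 5 mM L-Tyr and 3 of cells exposed to 2.5 µg/mL BrdU, each for 72 h. L-Tyr is the amino acid from which melanin is made, and BrdU (5-bromo-2′-deoxyuridine) is a thymidine analog. All groups were the same cell line without a genetic change, and exposure was the only difference between them that the labels give.

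A microRNA guides Argonaute to mRNAs that pair with its seed, the short stretch that follows its first base, and these mRNAs are then repressed. The miR-26 family is transcribed from introns of genes for small C-terminal domain phosphatases, and it is known for repressing Ezh2, the histone methyltransferase of Polycomb complex PRC2, and cyclins and kinases of the G1 phase. It is widely expressed in differentiated tissues and often low in tumors.

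The mature sequences of both members are shown because the arms that were counted differ at very few bases. They are from RefSeq (GRCm38.p6), and the seed, bases 2 to 8, is in capitals.
miR-26a-5p: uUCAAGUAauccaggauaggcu
miR-26b-5p: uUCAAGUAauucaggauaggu
Of 1679 mouse mature names in the RefSeq table, these 2 carry the seed UCAAGUA. Counted from the 5′ end of miR-26a-5p, the members differ by C11U and C21U, and miR-26a-5p is 22 nt long and miR-26b-5p 21 nt. An mRNA site that pairs with the seed alone is therefore shared by both.

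The hairpins are shown with their mature arms in capitals, since 2 of the 3 give the same 5p arm. Each was found by exact match in NCBIM37 (mm9), the build of the study.
Mir26a-1: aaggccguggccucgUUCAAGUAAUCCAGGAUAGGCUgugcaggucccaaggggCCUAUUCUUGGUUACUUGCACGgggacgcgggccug
Mir26a-2: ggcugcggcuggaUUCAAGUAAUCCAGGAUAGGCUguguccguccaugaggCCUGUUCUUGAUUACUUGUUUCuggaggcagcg
Mir26b: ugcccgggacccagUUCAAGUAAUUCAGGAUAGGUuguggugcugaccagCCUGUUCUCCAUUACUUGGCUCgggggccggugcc
Mir26a-1 lies on the plus strand at chr9:118940914-118941003, in an intron of Ctdspl. Mir26a-2 lies on the plus strand at chr10:126432586-126432669, in an intron of Ctdsp2. Mir26b lies on the plus strand at chr1:74440884-74440968, in an intron of Ctdsp1. The 3 host genes encode related phosphatases. The 3p arms of Mir26a-1 and Mir26a-2 differ at 6 positions and could be told apart, whereas their 5p arms are identical.

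The total count per library was between 144452 and 424122, so that 3 counts, the upper limit that a count of 0 allows, were worth between 7.07 and 20.8 CPM (counts scaled to a total of 1000000 per library). This limit covers counting error only. Replicate 3 of BrdU stood apart from the other 8 libraries. In it miR-143, a miRNA of smooth muscle and stroma, took 19.4% of the counts, against at most 0.732% in any other library. The summed level of the stromal and endothelial markers, 6 of 8 names with a count, was 275021 CPM in this library and at most 7041 CPM in any other. Of this sum 262393 CPM was miR-143, and the other stromal and endothelial markers with a count were also highest in this library. The summed level of the 3 erythroid markers was 7200 CPM there and at most 366 CPM elsewhere. Among them miR-486a was higher in BrdU replicate 1 (237 CPM) than in replicate 3 (153 CPM). The leukocyte markers, 3 of 4 names with a count, summed to 1495 CPM in BrdU replicate 3 and to at most 64.0 CPM elsewhere. Of these, miR-150 had a count only in L-Tyr replicate 2. The hepatic markers, 1 of 2 names with a count, were at 21.3 CPM in BrdU replicate 3 and at most 71.1 CPM elsewhere. The names without a count in these lists were miR-145, miR-126, miR-142 and miR-122a. They are other names of listed markers that had a count, so no marker was absent from all libraries. Of the melanocyte markers, miR-211 was present in every library, and miR-204 had no count in BrdU replicate 1. Their sum was between 6958 and 7572 CPM in BrdU, between 11077 and 17569 CPM in control cells and between 22260 and 24494 CPM in L-Tyr. It was nearly all miR-211, since miR-204 was at most 73.3 CPM in any library. The part of these markers in the results below was not tested, and the results in BrdU that draw on replicate 3 are also given without it.

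Nearly all miR-26 counts came from the 5p arms. Reads of miR-26a-5p numbered 4049, 11740 and 3885 in control replicates 1 to 3. They numbered 2799, 5305 and 3702 in L-Tyr and 4401, 11603 and 11743 in BrdU. Reads of miR-26b-5p numbered 561, 2092 and 698 in control, 418, 774 and 195 in L-Tyr, and 445, 1350 and 2239 in BrdU. Both 5p arms were thus counted well above the limit of 3 counts in every library. The 3p arms are the strands usually lost after the hairpin is cut. The miR-26a 3p arm had 23 counts in control replicate 2 and none in the other 8 libraries. The miR-26b 3p arm had 7 counts and 1 count in control replicates 2 and 3, 7 counts in L-Tyr replicate 1 and 20 counts in BrdU replicate 2, and none elsewhere. Both 3p arms failed the filter on low counts, and their levels were not tested.

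Scaled by edgeR's trimmed mean of M values (TMM), miR-26a-5p was at 20678, 28258 and 18148 CPM in the control libraries. It was at 17093, 18856 and 19196 CPM in L-Tyr and at 25398, 26121 and 41691 CPM in BrdU. The L-Tyr libraries lay close together and all under the BrdU libraries, whereas the control libraries overlapped both groups. By mean level, miR-26a-5p was 11th of 562 features with a count in control cells (22361 ± 5261 CPM, SD, n = 3), 15th of 471 in L-Tyr (18381 ± 1129 CPM) and 7th of 582 in BrdU (31070 ± 9205 CPM). In control cells its neighbors in this order were miR-30d-5p (22717 ± 1612 CPM) and miR-23a-3p (22360 ± 1019 CPM), and neither differed from it by more than its own spread.

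The level of miR-26b-5p was lower throughout. It was at 2865, 5035 and 3261 CPM in control, at 2553, 2751 and 1011 CPM in L-Tyr, and at 2568, 3039 and 7949 CPM in BrdU. Every L-Tyr library lay under every control library, BrdU replicate 1 lay within the range of L-Tyr, replicate 2 within that of control, and replicate 3 above both. By mean level it was 50th in control cells (3720 ± 1156 CPM, SD, n = 3), 67th in L-Tyr (2105 ± 952 CPM) and 47th in BrdU (4519 ± 2980 CPM). Its neighbors in control cells, miR-106b-5p (3763 ± 1160 CPM) and miR-25-3p (3702 ± 421 CPM), did not differ from it beyond the spread. The ratio of miR-26a-5p to miR-26b-5p was between 5.57 and 7.22 in control cells, between 6.70 and 19.0 in L-Tyr and between 5.24 and 9.89 in BrdU, and the 3 groups overlapped. The highest ratio was in L-Tyr replicate 3, where miR-26b-5p had its lowest count.

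**Figure D1:**
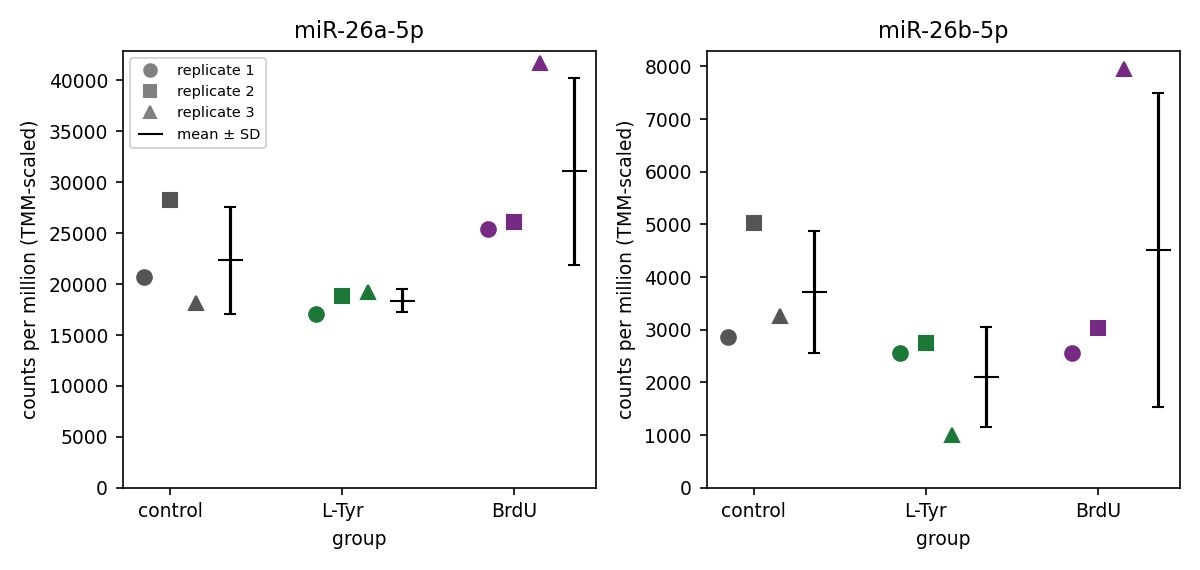
Level of miR-26a-5p (left) and miR-26b-5p (right) in TMM-scaled CPM for each of the 9 libraries by group, with the mean and SD of the 3 replicates as a black bar. The 3 BrdU libraries of miR-26a-5p sit between 25398 and 41691, above the L-Tyr libraries, and BrdU replicate 3 is the highest library for both members.

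Neither 5p arm passed the test in any comparison. Between L-Tyr and control cells, the log2 fold change of miR-26a-5p was -0.29 (SE 0.217, 95% interval -0.78 to 0.20, adjusted p = 0.668 by the method of Benjamini and Hochberg, edgeR's quasi-likelihood test). That of miR-26b-5p was -0.83 (SE 0.414, 95% interval -1.76 to 0.11, adjusted p = 0.418, same edgeR test). A fall of miR-26b-5p by more than 1 log2 unit was thus inside its interval, and this comparison could not resolve it. In this comparison 2.43% of the 247 features tested were called. In TMM-scaled levels the miR-26b-5p groups did not overlap, being lower in L-Tyr, as was so for 16.2% of these features. Scaled by total count alone, the miR-26b-5p groups overlapped, and the log2 fold change was -0.52. The median log2 fold change over all features tested was -0.20 with TMM and 0.10 when libraries were scaled by total count. Relative to the TMM median, miR-26a-5p differed by -0.09 and miR-26b-5p by -0.63.

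For BrdU relative to control cells, the log2 fold change of miR-26a-5p was 0.52 (SE 0.309, 95% interval -0.19 to 1.24, adjusted p = 0.428, edgeR's quasi-likelihood test). That of miR-26b-5p was 0.34 (SE 0.489, 95% interval -0.80 to 1.48, adjusted p = 0.807, edgeR's quasi-likelihood test). Without BrdU replicate 3 these values were 0.27 (95% interval -0.33 to 0.87) and -0.34 (95% interval -1.13 to 0.45), so that the direction of miR-26b-5p turned on that library. Of the 272 features tested, 1.84% were called. Over all of them the median was -0.11 with TMM and -0.09 with total counts.

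The comparison of BrdU with L-Tyr gave the values farthest from 0, and it shares libraries with both comparisons above. The log2 fold change of miR-26a-5p was 0.77 (SE 0.234, 95% interval 0.24 to 1.31), with an unadjusted p of 0.0105 and an adjusted p of 0.226 in edgeR's quasi-likelihood test. It was higher in every BrdU library than in every L-Tyr library, as were 11.3% of the 238 features tested, of which 2.52% were called. Without BrdU replicate 3 it was 0.44 (95% interval 0.02 to 0.86, adjusted p = 0.452, edgeR's quasi-likelihood test), and the 2 remaining BrdU libraries still lay above the L-Tyr libraries. The log2 fold change of miR-26b-5p was 1.11 (SE 0.522, 95% interval -0.09 to 2.31, adjusted p = 0.444, edgeR's quasi-likelihood test), and 0.36 without BrdU replicate 3. The median over all features tested was 0.14 with TMM and -0.11 with total counts. Without a filter on low counts, the adjusted p of miR-26a-5p was 0.0355 in edgeR's quasi-likelihood test, which is under the threshold of 0.05. In that setting 27 features were called in this comparison, beside 6 with the filter.

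**Figure D2:**
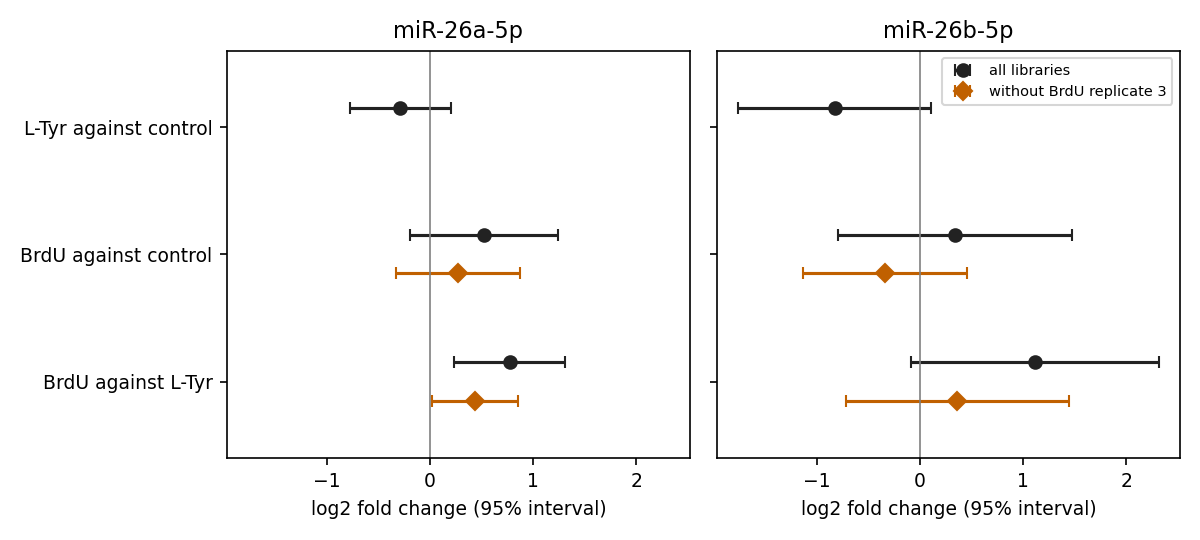
Log2 fold change of miR-26a-5p (left) and miR-26b-5p (right) in the 3 comparisons, with the 95% interval of edgeR's quasi-likelihood fit, for all libraries (black circles) and without BrdU replicate 3 (orange diamonds). The interval of miR-26a-5p in BrdU relative to L-Tyr runs from 0.24 to 1.31, and the value of miR-26b-5p in BrdU relative to control cells changes sign without that library.

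As a share of all counts, the family made up 2.32%, 3.27% and 1.74% of the control libraries. It made up 2.23%, 2.55% and 2.23% of L-Tyr and 2.83%, 3.37% and 3.67% of BrdU. The mean share was 3.29% ± 0.426 in BrdU and 2.34% ± 0.184 in L-Tyr (SD, n = 3), and the groups did not overlap (exact two-sided permutation test, p = 0.1, the smallest that 3 against 3 allows, adjusted p = 1 over 18 tests). The mean of the first 2 BrdU libraries alone was 3.10%. A single mir-3963 tag took 13.5%, 16.4% and 22.0% of the control counts and between 4.09% and 4.96% in the exposed libraries. With mir-143 and mir-3963 out of the totals, the family share in L-Tyr minus control went from -0.102 to -0.478 percentage points. In the same setting BrdU minus control went from 0.848 to 0.828, and BrdU minus L-Tyr from 0.950 to 1.31. The share of miR-26a among the 5p counts was 85.8% ± 1.74 in control, 89.8% ± 4.54 in L-Tyr and 88.1% ± 3.64 in BrdU (SD, n = 3), and the groups overlapped. Without replicate 3 the mean in BrdU was 90.2%.

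The identical 5p arm of the 2 miR-26a hairpins was listed under both. Of 23 miR-26a-5p tag sequences, 14 stood under both hairpins, and they held 91.8% of the counts. Of these shared counts, 50.1% were listed under mir-26a-1, between 49.1% and 51.4% in the single libraries. The counts under the 2 hairpins were identical in 3 of 106 pairs of sequence and library with a count, so the sums are not copies of each other. The part of each hairpin in the miR-26a-5p level cannot be told apart.

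The tags were between 15 and 20 nt long, shorter than either mature miRNA, so no tag holds a whole mature sequence and the start of a tag cannot be read as the 5′ end of the molecule. The most abundant tag of each member and the tag that begins at the mature 5′ end are shown, as the libraries differed in these. The part of the seed that a tag holds is in capitals.
miR-26a-5p, most abundant: CAAGTAatccaggataggct
miR-26a-5p, mature start: tTCAAGTAatccaggatagg
miR-26b-5p, most abundant: CAAGTAattcaggataggtt
miR-26b-5p, mature start: tTCAAGTAattcaggatagg
The first of these held 33.5% of the miR-26a-5p counts and the second 20.6%, and the third held 34.0% of the miR-26b-5p counts and the fourth 18.1%. The remaining tags formed a ladder of starts up to 7 nt past the mature 5′ end. Of the 5p entries, 12 of miR-26a and 10 of miR-26b held at least 1% of their member's counts. Control means at starts 1, 3, 4 and 5 nt past the mature 5′ end were 8.51%, 17.4%, 11.9% and 6.20% of miR-26a-5p counts. For miR-26b-5p they were 11.5%, 17.4%, 15.5% and 8.10%, so the means at these starts followed the same order in both members. The single libraries did not all keep it. In control replicate 1 the start at 4 nt held 17.5% of the miR-26b-5p counts and that at 3 nt 15.2%. By mean, the mature start did not keep its place between members. In control cells it held 20.1% of the miR-26a-5p counts, above all of these starts. It held 10.6% ± 2.67 of the miR-26b-5p counts (SD, n = 3), below the means of the starts 1, 3 and 4 nt past it. The start at 1 nt, at 11.5% ± 3.53, did not differ from it beyond the spread, and in control replicate 2 the mature start was the higher (10.7% and 10.3%).

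BrdU replicate 3 differed from the other libraries in this ladder. Tags at the mature start held 18.1%, 17.8% and 24.6% of the miR-26a-5p counts in control and 13.6%, 20.5% and 20.99% in L-Tyr. They held 10.9%, 15.7% and 43.9% in BrdU. For miR-26b-5p the share was between 7.84% and 13.2% in control and between 5.13% and 11.6% in L-Tyr, and it was 7.42%, 5.41% and 46.8% in BrdU. The first 2 BrdU libraries thus lay within or under the range of the other groups for both members, and the third was above every other library. Among 64 other features with at least 100 counts in every library, the median share at the mature start was 25.8% in BrdU replicate 3 and between 16.2% and 23.8% in the others, and 23 of the 64 were highest in it.

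Tags of miR-26a-5p at all other starts summed to 16945, 23235 and 13691 CPM in control, to 14760, 15000 and 15167 CPM in L-Tyr and to 22622, 22026 and 23393 CPM in BrdU. Replicate 3 was here level with the other BrdU libraries, and the 3 BrdU libraries lay above L-Tyr. At the mature start the same member was at 2776, 4095 and 18298 CPM in BrdU. Tags of miR-26b-5p at all other starts summed to 2640, 4494 and 2831 CPM in control, to 2266, 2431 and 959 CPM in L-Tyr and to 2378, 2873 and 4225 CPM in BrdU. For this member replicate 3 remained the highest BrdU library, and BrdU replicate 1 lay under L-Tyr replicate 2. With the miR-26 tags at the mature start left out, an alternative chosen after seeing the data, miR-26b-5p in BrdU relative to control cells was at -0.01 on the log2 scale.

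**Figure D3:**
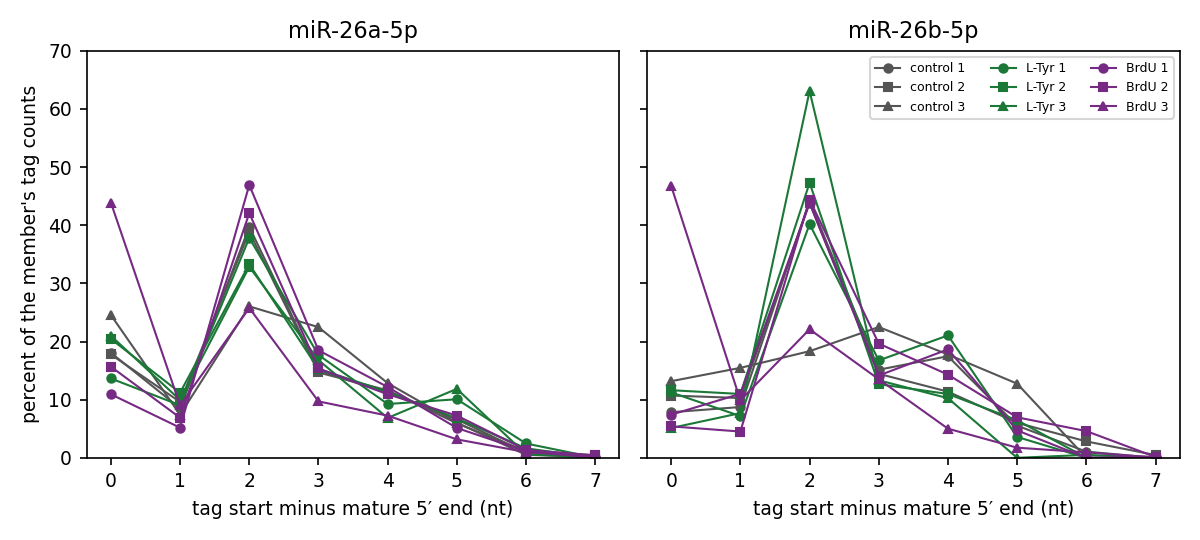
Share of the tag counts of miR-26a-5p (left) and miR-26b-5p (right), in percent, by the distance in nt from the mature 5′ end to the tag start, with a line for each library. BrdU replicate 3 (purple triangles) holds 43.9% and 46.8% of the counts at distance 0, where the other libraries hold less, and most libraries peak at distance 2.

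Each tag was also tested as an entry of its own, since the authors' deposited comparisons list single tags. Between L-Tyr and control cells, 32 miR-26 tags passed the filter, of which 7 were above 0 and 25 below, with a median log2 fold change of -0.34. For BrdU relative to control cells, 36 passed, 30 above 0 and 6 below, with a median of 0.44. For BrdU relative to L-Tyr, 31 passed, 30 above 0 and 1 below, with a median of 0.77. Without BrdU replicate 3, 18 of 37 tags were above 0 relative to control cells, with a median of -0.01, so that the tally there rested on this library. Relative to L-Tyr, 22 of 30 were above 0 without it, with a median of 0.37. Tags of a member share molecules of 1 source and overlap in sequence, so these counts are not independent of each other. Over all entries tested, the medians were -0.13, -0.01 and 0.06 in the same order, and 45.4%, 49.8% and 52.4% of entries were above 0. No miR-26 tag was called by edgeR's quasi-likelihood test in any comparison, where 0.0796%, 0% and 0.162% of all entries were called. At an unadjusted p under 0.05 in the same edgeR test there were 0, 1 and 4 miR-26 tags, beside 9.63%, 10.5% and 7.29% of all entries. DESeq2 called 0, 1 and 1, where it called 2.67%, 1.98% and 2.56% of all entries with an adjusted p. The tag it called was an 18 nt miR-26a-5p tag at the mature start listed under mir-26a-2, whose counts were 4, 34 and 105 in BrdU and at most 2 in any other library. Without a filter, edgeR called the mature-start tag of miR-26b-5p shown above in both BrdU comparisons and no miR-26 tag in L-Tyr relative to control cells, where it called 1.99%, 1.16% and 0.287% of all entries. This tag had 11, 73 and 1039 counts in BrdU and between 10 and 197 in the other libraries. The 2 listings of the most abundant miR-26a-5p tag were at 0.76 under mir-26a-1 and 0.77 under mir-26a-2 in BrdU relative to L-Tyr, each with an adjusted p of 0.369 in edgeR's quasi-likelihood test.

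**Figure D4:**
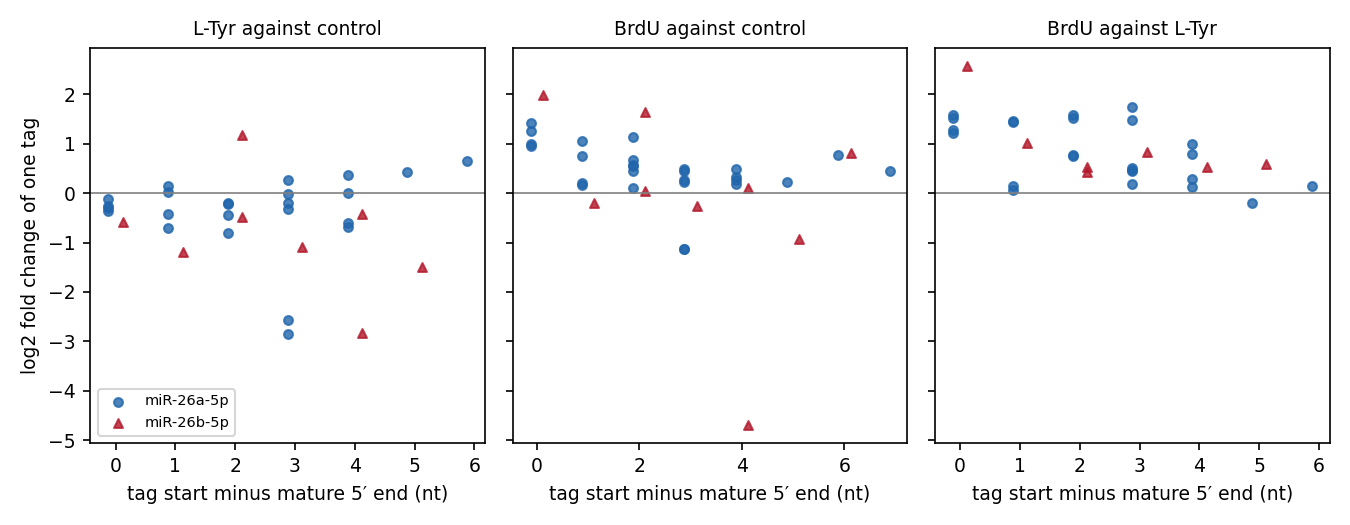
Log2 fold change of each tested tag of miR-26a-5p (blue circles) and miR-26b-5p (red triangles) against the distance in nt from the mature 5′ end to its start, in the 3 comparisons. In BrdU relative to L-Tyr 30 of 31 tags lie above 0 (22 of 30 without BrdU replicate 3), and the highest is the miR-26b-5p tag at distance 0.

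Some tags ended in letters that the hairpin does not encode, as enzymes that add a base to a 3′ end leave. For miR-26a-5p a single t was the most frequent, with 1214 counts, 2.05% of the member, followed by a single a with 426 counts. The pair aa had 105 counts, all in BrdU replicate 3. For miR-26b-5p a single t had 75 counts and a single a 74. The share of miR-26a-5p counts with such an end was 4.002% ± 3.42 in control, 2.85% ± 0.997 in L-Tyr and 2.77% ± 0.143 in BrdU (SD, n = 3), and the groups overlapped. Without replicate 3 the mean in BrdU was 2.82%.

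The features most like miR-26a-5p across the 9 libraries, by Pearson's r of log2 CPM among 162 other features with a mean count of at least 50, were miR-100-5p (r = 0.937), miR-322-5p (0.929), miR-542-3p (0.862), miR-126a-3p (0.854) and miR-27a-3p (0.842). Without BrdU replicate 3 these were 0.836, 0.808, 0.733, 0.596 and 0.544. The first 4 were low in control cells, with means between 74.9 and 96.1 CPM, and had their high mean in BrdU with an SD above that mean. Its family member miR-26b-5p came 12th, with r = 0.727, and 28th without that library, with r = 0.456. The points share libraries, depth and scaling, and these values are descriptions.

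Other miRNAs known to repress Ezh2 were the let-7 family with miR-98, miR-101a, miR-101b, miR-138 and miR-214. Of these 13, 11 could be tested. Apart from miR-101a-3p and miR-101b-3p they were all let-7 members or miR-98, so the list median is mostly that of a single family. In L-Tyr relative to control cells 1 was called lower and none higher, and 10 of 11 were below 0, with a median log2 fold change of -0.62 beside -0.20 for all features. Of all features tested there, 39.3% were above 0. The member called was let-7d-5p, with means of 19817 ± 4563 CPM in control and 9138 ± 1008 CPM in L-Tyr (SD, n = 3), which fell by 1.10 on the log2 scale (SE 0.213, adjusted p = 0.0355, edgeR's quasi-likelihood test), where 0.81% of all features were called lower. This call was lost without control replicate 1 or 3 or L-Tyr replicate 1 or 3, with adjusted p-values between 0.17 and 0.261 in the same edgeR test. It was also lost with total count scaling (0.0811), with all 9 libraries (0.0742), without the mir-3963 tag (0.05002) and with the most abundant tag only (0.421), and held in 12 of 20 alternatives. In BrdU none was called relative to control cells (median -0.40 beside -0.11) or to L-Tyr (median 0.30 beside 0.14). Without BrdU replicate 3 the medians were -0.24 beside -0.13 and 0.18 beside 0.05, again with none called. With all libraries, miR-26a-5p at 0.52 and 0.77 lay above the median of the list in both. So did miR-101a-3p at 2.12 and 1.86, with 3041 ± 4274 CPM in BrdU (SD, n = 3), and miR-101b-3p at 0.13 and 1.13.

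Other miRNAs known to repress G1 cyclins and kinases were the miR-15 and miR-16 group, the miR-34 group and miR-503. Of the 11 names in this list, which held miR-322 also under the name miR-424, 9 had a count. Of them, 5 could be tested in L-Tyr relative to control cells and 6 in the others. None was called in any comparison. In L-Tyr relative to control cells 4 of 5 were below 0, where 39.3% of all features were above 0. For BrdU relative to control cells 5 of 6 were above 0, beside 45.6% of all features. Without BrdU replicate 3 it was 6 of 8, beside 45.9%. In BrdU relative to L-Tyr all 6 tested were above 0, beside 58% of all features, with a median of 1.13 beside 0.14. Of these 6, miR-322-5p passed the filter only in the comparisons with BrdU, so its sign is not independent of the filter. Without BrdU replicate 3, 8 could be tested there and 7 were above 0, beside 52.6% of all features, with a median of 0.93 beside 0.05. Of them miR-503-5p was at 661.5 ± 115 CPM in control, 349.8 ± 20.8 CPM in L-Tyr and 1242 ± 356 CPM in BrdU (SD, n = 3), a log2 fold change of 1.84 between BrdU and L-Tyr (SE 0.463, adjusted p = 0.12, edgeR's quasi-likelihood test), and 1.67 without BrdU replicate 3. The value of miR-322-5p, which was at 2449 ± 4056 CPM in BrdU, rested on replicate 3, which was at 7133 CPM beside 46.2 and 169 CPM in the other BrdU libraries.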

How the data were processed

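Small RNA was sequenced in 9 libraries of B16F1 cells, 3 per group as the sample labels give them. The labels do not say whether replicates were separate cultures, so p-values measure only the spread between these libraries. The authors deposited raw counts per entry, made with the Illumina BaseSpace Small RNA application. By their account it aligned the reads to mm9 and gave a miRBase name only at full identity. Some tags listed under the miR-26 hairpins nevertheless ended in letters that the hairpin does not encode. The authors' size-factor normalized counts and the fold changes and p-values of their own comparisons were not used.

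Entries were summed by hairpin name without its copy number and by arm, with a tag start under 35 taken as 5p. Each comparison was fitted on its 6 libraries with edgeR 4.0.16 in R 4.3.3 (TMM, filterByExpr, quasi-likelihood test, Benjamini-Hochberg over all features tested, calls at an adjusted p under 0.05). Levels are CPM with TMM over the 9 libraries. Log2 CPM used a prior count of 2. Shares were compared by exact permutation. The fits were tested on simulated data, where they made no wrong call but missed many of the changed features, all of the smaller changes among them. The simulated counts had the same spread setting for all features and no outlying library. They therefore do not show how sound the calls are in these data. DESeq2 1.42.0 was an alternative, with the other scalings, filters, ways of summing, a replicate block and each library left out. Tables and figures were made in Python with pandas and matplotlib. Named were all members and arms, their main and called tags, the 5 features most like miR-26a-5p, the neighbors in level, and 2 lists of miRNAs with shared targets. The members and lists were chosen with earlier results of these data known. Chosen after seeing the data were the shares at the mature start, of miR-26b-5p at its main start and of untemplated ends, the fit without mature-start tags, the comparison with 64 other features, and the choice of let-7d-5p, miR-503-5p and miR-322-5p as examples of the lists.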

Additional observations from a re-analysis of the deposited data

How the results depend on the processing

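Over 20 alternatives, miR-26a-5p in BrdU relative to L-Tyr lay between 0.44 and 0.83 on the log2 scale and was called in 1 of them, without a filter (0.76, adjusted p = 0.0355, edgeR's quasi-likelihood test). Relative to control cells it lay between 0.27 and 0.76. In L-Tyr relative to control cells it lay between -0.40 and 0.00209, the latter with total count scaling. For miR-26b-5p the ranges were 0.36 to 1.31 in BrdU relative to L-Tyr and -1.01 to -0.39 in L-Tyr relative to control cells. In BrdU relative to control cells, leaving out single libraries moved it between -0.34 (without BrdU replicate 3) and 0.71, and leaving out the tags at the mature start, chosen after seeing the data, gave -0.00909. The cause was not tested.

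Counts of features called moved more. In L-Tyr relative to control cells 6 were called, and 14 without a filter, 19 with DESeq2, 2 without the mir-3963 tag, 1 with all 9 libraries or the most abundant tag only, and between 1 and 9 with single libraries left out. In BrdU relative to control cells 5 were called, and 46 without a filter, 22 with DESeq2, 12 at a mean count of at least 50, 8 with all 9 libraries, 3 with total count scaling, 0 with the most abundant tag only, and between 0 and 7 with single libraries left out. In BrdU relative to L-Tyr 6 were called, and 27 without a filter, 12 with DESeq2, 3 with all 9 libraries, 2 with the most abundant tag only, and between 0 and 5 with single libraries left out. Of miR-26 tags, 1 was called in each BrdU comparison without a filter and 1 with DESeq2.

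The replicate numbers did not pair the libraries: the deviations of same-numbered libraries correlated between -0.0741 and 0.028, and 5 of 18 were best correlated with their own number. With the replicate block, 0 features were called in BrdU relative to control cells and 2 in BrdU relative to L-Tyr, and no miR-26 call changed.

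With single libraries left out, in percentage points, the family share in L-Tyr relative to control cells ran from -0.454 to 0.311, and the miR-26a share in BrdU relative to L-Tyr from -3.005 to 0.99. The 3p share of miR-26b ran from -0.159 to 0.665 in L-Tyr and from -0.159 to 0.571 in BrdU relative to control cells, and from -0.549 to 0.487 in BrdU relative to L-Tyr. The main-start share of miR-26a-5p ran from -4.62 to 2.21, from -1.01 to 9.64 and from -0.723 to 9.85 in the same order, and the share in the longest tags from -2.17 to 0.363 and from -0.612 to 3.67 in L-Tyr and BrdU relative to control cells. The levels of the 3p arms had too few counts to be tested. Exact tests of their shares were run on these few counts. That of miR-26a between BrdU and L-Tyr could show no difference, since its 3p arm had no count in either group. With 3 libraries a group the exact tests cannot go below p = 0.1.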
